A study of Mus musculus with 4 samples.

Results

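Immediate early genes are transcribed within minutes of a signal, without the need for new protein synthesis. The AP-1 transcription factor is a dimer of a Jun protein (Jun, Junb or Jund) with a Fos protein (Fos or Fosb) or another Jun, and Egr1, Ier2 and Atf3 encode further nuclear proteins of the same early wave. Dusp1 and Zfp36 act against it: Dusp1 is a phosphatase that removes the activating phosphates from MAP kinases, and Zfp36 (tristetraprolin) binds AU-rich messenger RNAs and promotes their decay. In monocytes these genes are known to be raised by growth factors, cytokines and bacterial products, and also by the handling of tissue. The 10 genes described here (Fos, Fosb, Jun, Junb, Jund, Egr1, Ier2, Atf3, Dusp1 and Zfp36) were looked up by symbol among the 27998 Gene Expression features of each deposited matrix, and 10 of 10 were in both. They were chosen by their difference between old and young mice in these same data, so their age values are a description and carry no test.

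The cells were Ly6Chi classical monocytes (Ly6G- CD11b+ CD115+) sorted from the bone marrow of wild-type C57BL/6 mice, which carried no transgene and received no treatment. Each mouse had its own hashtag antibody. The male pool held 5 young (14 weeks) and 5 old (27 months) mice and the female pool 5 young (15 weeks) and 5 old (26.5 months) mice, each pool being 1 library from an experiment of its own, so that sex and experiment cannot be told apart. After filtering, 1227 male cells (701 young, 526 old) and 6641 female cells (3632 young, 3009 old) remained, with 49 to 206 cells per male mouse and 259 to 1592 per female mouse, and 0 barcodes were shared by the pools.

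Cells of old mice held more UMIs than those of young mice, in males and in females, within the same library. The median number of unique molecular identifiers (UMIs) per cell was 3805.5 to 4455.5 in young and 4489.5 to 8844 in old males, and 7978 to 8990 in young and 9699.5 to 13033 in old females. Of 6 classical monocyte markers (Ly6c2, Ccr2, Csf1r, Itgam, Lyz2 and Fn1) 5 were in the matrices under these symbols, and their summed level was 33380 to 36114 CPM (UMIs scaled to a common library total) in young males, 15560 to 32508 in old males, 29202 to 30838 in young females and 24824 to 30807 in old females. Markers of other cells were low: the B cell list lay between 9.83 and 37.0 CPM and the T or NK list between 14.8 and 129 CPM in any mouse, with Ms4a1 and Il2rb at 0 in males. Basophil genes reached 467 CPM in male young 2 and 545 CPM in male old 3, against at most 3.32 CPM in the female pool. Male old 4 stood apart, with the fewest cells, the deepest cells and the lowest monocyte marker level, and is named below where it matters. The part of depth and of other cells in any age difference was not tested.

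The start regions of some of these genes are shown because most of the 10 were lower in old mice side by side, and their sequence was not used in choosing them. RefSeq promoters of GRCm38.p6 were at hand for 8 of the 10 genes, and the 250 bases before each start were searched. The motifs were TGANTCA (the AP-1 site, both strands), TGACGTCA (the cyclic AMP response element, CRE, both strands), TGACG (its core, both strands, which overlaps every CRE), TGACATCA (the site described in the Jun promoter, both strands), the CArG box by name (both strands) and TATAAA (given strand). The CRE core was found in 5 of 8 (Fos, Fosb, Junb, Atf3 and Dusp1), against 17.8% of 32841 promoters of the same length. A full CRE was found in Dusp1 alone of the 8 (1.55% of all promoters), the Jun site in Jun (2.93%), the CArG box in Zfp36 (1.47%) and TATAAA in Fos (7.59%), and the AP-1 site in 0 of 8 (6.75%). These are matches of letters in short windows. The windows of Fos, Fosb, Jun and Junb end within 50 bases of the gene's annotated start, and those of Jund, Atf3, Dusp1 and Zfp36 do not: that of Jund ends 1210 bases before it, and the other 3 lie past it, inside the annotated gene. Below, in 5′ to 3′ order on the gene's own strand, are the last 150 bases before the start of Fos (chr12:85473740-85473889, plus strand), the last 100 before those of Fosb (chr7:19310046-19310145, minus strand) and Jun (chr4:95052223-95052322, minus strand), and bases 150 to 51 before that of Dusp1 (chr17:26508523-26508622, minus strand). Capitals mark the matched motifs.
Fos: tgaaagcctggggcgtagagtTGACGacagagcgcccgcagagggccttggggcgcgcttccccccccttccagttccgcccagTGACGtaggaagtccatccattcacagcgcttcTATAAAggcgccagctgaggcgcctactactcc
Fosb: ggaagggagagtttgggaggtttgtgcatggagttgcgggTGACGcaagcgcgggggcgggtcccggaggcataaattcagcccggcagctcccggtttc
Jun: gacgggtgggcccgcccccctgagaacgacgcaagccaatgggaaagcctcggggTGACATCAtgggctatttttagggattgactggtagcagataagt
Dusp1: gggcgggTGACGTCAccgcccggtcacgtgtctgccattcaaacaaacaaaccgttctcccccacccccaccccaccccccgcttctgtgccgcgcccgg
In the Fos window the 2 CRE cores begin 129 and 66 bases before the start and TATAAA begins 33 bases before it. The CRE core of Fosb begins 60 bases before the start and the CRE of Dusp1 143 bases before. In the GENCODE annotation of GRCm38 the genes themselves lie at chr12:85473890-85477273 (Fos), chr7:19302696-19310051 (Fosb), chr4:95049034-95052222 (Jun, a single exon) and chr17:26505590-26562128 (Dusp1). The windows printed for Fos, Jun and Dusp1 overlap no annotated exon, and that of Fosb overlaps 6 exonic bases.

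Fos, the partner that Jun proteins need for the classical AP-1 dimer, was lower in old mice of both pools. Summed over cells, Fos was at 735, 569, 621, 621 and 780 CPM in young males and at 465, 486, 377, 473 and 525 CPM in old males. Every old male lay below every young male, and the fitted log2 fold change (old minus young, edgeR with TMM scaling) was -0.52 (SE 0.10), or 0.697 times the young level. In females Fos was at 374, 425, 384, 370 and 397 CPM in young and at 311, 248, 286, 298 and 208 CPM in old mice. The groups did not overlap there either, at a log2 fold change of -0.53 (SE 0.09). Its relative Fosb was scarcer, with 181 UMIs in the male and 1789 in the female pool. Fosb averaged 38.1 ± 10.4 CPM in young and 19.0 ± 7.41 CPM in old males (SD, n = 5 each) and 31.5 ± 8.73 CPM in young and 15.8 ± 3.58 CPM in old females. The log2 fold changes were -1.09 (SE 0.27) and -0.99 (SE 0.19), and the groups overlapped in males alone.

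**Figure D1:**
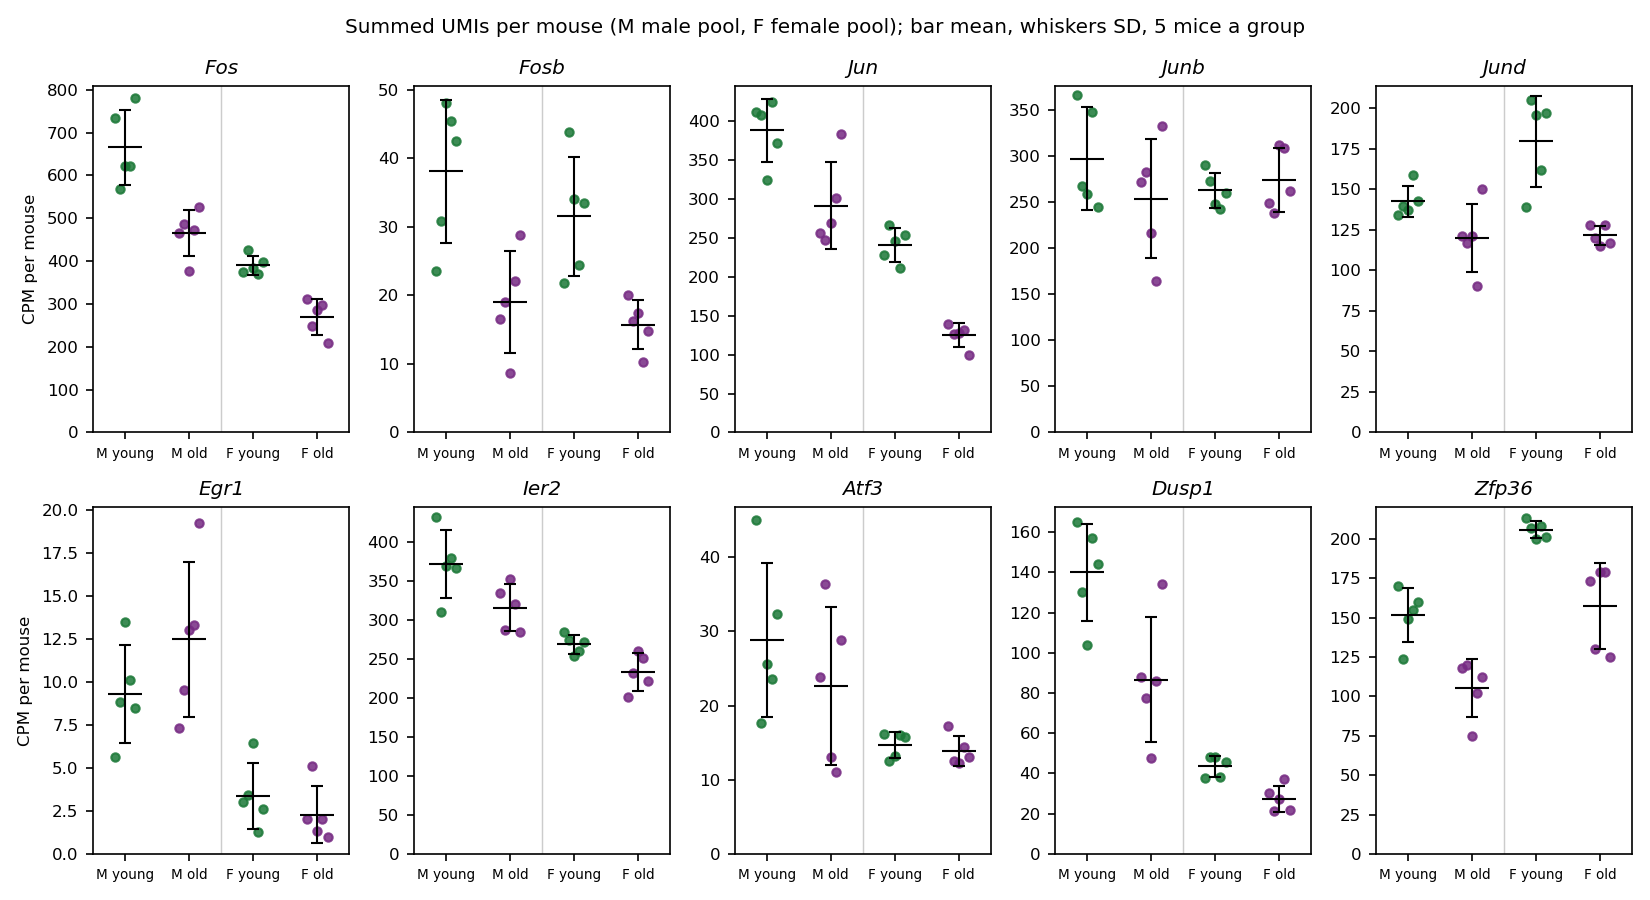
Level of each of the 10 genes (vertical axis, CPM, from 0) in each mouse of the male (M) and female (F) pools. Each point is 1 mouse, the bar is the mean of 5 mice and the whiskers are the SD. Fos and Zfp36 are lower in every old mouse than in any young mouse in both pools, while Junb and Atf3 overlap in both.

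Jun showed its larger decline in females. Jun was at 228, 267, 246, 211 and 254 CPM in young females and at 140, 127, 128, 132 and 99.5 CPM in old females. The groups were far apart (log2 fold change -0.94, SE 0.08, or 0.522 times). In males Jun was at 412, 408, 325, 425 and 372 CPM in young and at 257, 247, 269, 301 and 384 CPM in old mice. Old 5 lay among the young males and the other 4 old males below all of them (log2 fold change -0.44, SE 0.11). The SEs of both pools are given because no test of the difference between the pools is reported for the 10 genes.

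Jund, a Jun protein that most cells keep at a steady level, was lower in old females without overlap. It was at 139, 205, 196, 162 and 197 CPM in young and at 128, 120, 115, 128 and 117 CPM in old females (log2 fold change -0.56, SE 0.09). In males it averaged 142 ± 9.60 CPM in young and 120 ± 21.2 CPM in old mice (SD, n = 5 each), with overlap (-0.26, SE 0.11). Junb, which can oppose Jun on some promoters, did not share the pattern in females. It was at 290, 273, 248, 243 and 260 CPM in young and at 249, 238, 312, 309 and 262 CPM in old females, a log2 fold change of 0.06 (SE 0.08). In males Junb averaged 297 ± 55.5 CPM in young and 254 ± 65.1 CPM in old mice (-0.24, SE 0.15), and the log2 fold change was -0.13 without male old 4 and -0.15 without male young 1. The ages overlapped for Junb in both pools.

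The 2 negative regulators were lower in old mice. Zfp36 was at 170, 124, 149, 155 and 160 CPM in young males and at 118, 120, 74.9, 102 and 112 CPM in old males (log2 fold change -0.52, SE 0.13). In females it was at 213, 207, 200, 208 and 201 CPM in young and at 173, 130, 179, 179 and 125 CPM in old mice (-0.38, SE 0.09). Every old mouse lay below every young mouse in both pools. Dusp1 averaged 140 ± 24.3 CPM in young and 86.8 ± 31.2 CPM in old males (-0.76, SE 0.19), where old 5, at 134 CPM, lay among the young. In females Dusp1 was at 43.5 ± 5.25 CPM in young and 27.4 ± 6.55 CPM in old mice (-0.61, SE 0.13), without overlap.

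For the remaining 3 genes the ages overlapped in both pools. Ier2, a short nuclear protein of the early wave, averaged 372 ± 43.6 CPM in young and 316 ± 29.9 CPM in old males (log2 fold change -0.23, SE 0.10) and 269 ± 12.1 and 234 ± 23.8 CPM in females (-0.20, SE 0.06). Atf3, a stress-induced repressor of the ATF family, averaged 28.8 ± 10.4 and 22.6 ± 10.7 CPM in males and 14.7 ± 1.71 and 13.9 ± 2.02 CPM in young and old females. Its log2 fold changes were -0.39 (SE 0.30) in males, which became -0.12 without young male 1, and -0.13 (SE 0.11) in females. Egr1, a zinc finger factor, had 66 UMIs in the male pool, where it did not pass the filter on low counts, and 180 in the female pool. It ranged from 5.63 to 13.5 CPM in young and from 7.33 to 19.2 CPM in old males, and from 1.26 to 6.44 CPM in young and from 0.966 to 5.12 CPM in old females. The female log2 fold change was -0.36, with an SE of 0.44 that was larger than its size. It ranged from -0.75 (without old female 2, at 5.12 CPM) to -0.14 (without young female 3).

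Of the 9 genes that passed the filter in males, 9 had a negative log2 fold change, with a median of -0.44 against 0.01 over all 5656 genes tested. Egr1, which did not pass, had a higher mean in old males (12.5 ± 4.51 CPM) than in young males (9.33 ± 2.87 CPM), with overlap. In females 9 of 10 were negative, with a median of -0.45 against -0.00 over 10074 genes. Every old mouse lay below every young mouse for 2 of the 9 in males (Fos and Zfp36) and for 6 of the 10 in females (Fos, Fosb, Jun, Jund, Dusp1 and Zfp36), where that order was found for 1.15% and 2.63% of all genes tested. These counts used the contrast by which the genes had been chosen, and nothing further is read from them. Without male old 4 the number lower in old males was still 9 of 9. The heat shock list of 10 genes, some of which also respond to handling, had 0 genes called by edgeR in either pool. At an unadjusted p under 0.05, 2 were higher in males, and 3 were higher and 1 lower in females. Over all genes, 618 of 5656 in males and 1667 of 10074 in females had such a p in either direction. Summed levels of the list were 3384 to 4401 CPM in young and 4003 to 4854 CPM in old males. They were 5049 to 5567 CPM in young and 4999 to 6477 CPM in old females. Hspa8 was the most abundant gene of the list, at 1872 CPM in young males and 2502 CPM in young females. Hspa1a, the 1 lower gene in females, was at 5.92 ± 4.28 CPM in young and 2.87 ± 1.56 CPM in old females (log2 fold change -0.97, SE 0.44). Hspa1b was at 5.84 ± 4.62 and 2.98 ± 1.49 CPM there (-0.80, SE 0.48). In males Hspa1a was at 135 ± 43.6 and 136 ± 133 CPM (-0.24, SE 0.43), and the log2 fold change of Hspa1b was -0.06 (SE 0.52). The part of the heat shock list in the age difference was not tested.

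How many cells show a gene, by 1 UMI or more, depends on depth, which was higher in old mice. Over all UMIs, the mean share was lower in old mice for 8 of 10 genes in males and 7 of 10 in females. After each cell was thinned at random to 2000 UMIs (1169 male and 6637 female cells were deep enough, 58 and 4 being left out), it was lower for 10 of 10 in males and 9 of 10 in females. No cell type known to lack these genes was identified in the sort, so no background share is given beside these. Fos was found in 60.6 ± 4.59% of thinned young male cells and 48.9 ± 7.87% of old (SD, n = 5 each), and in 51.1 ± 2.15% of young and 42.2 ± 4.68% of old female cells. For all UMIs the female shares of Fos were 88.6 ± 2.12% and 85.4 ± 3.02%. Jun was found in 45.1 ± 3.45% and 37.4 ± 5.56% of thinned young and old male cells and in 37.2 ± 2.89% and 21.7 ± 2.82% of female cells, the widest gap of the 10 genes in females. The thinned shares did not overlap between the ages for Dusp1 and Zfp36 in males and for Fos, Jun, Jund and Zfp36 in females. Some of the lower thinned shares differed by little. Atf3 and Egr1 differed by -0.278 and -0.483 percentage points in males and by -0.299 and -0.132 in females. How often a share is lower, or lower without overlap, over all genes after thinning is not given. The genes were chosen by this contrast, so nothing further is read from it.

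**Figure D2:**
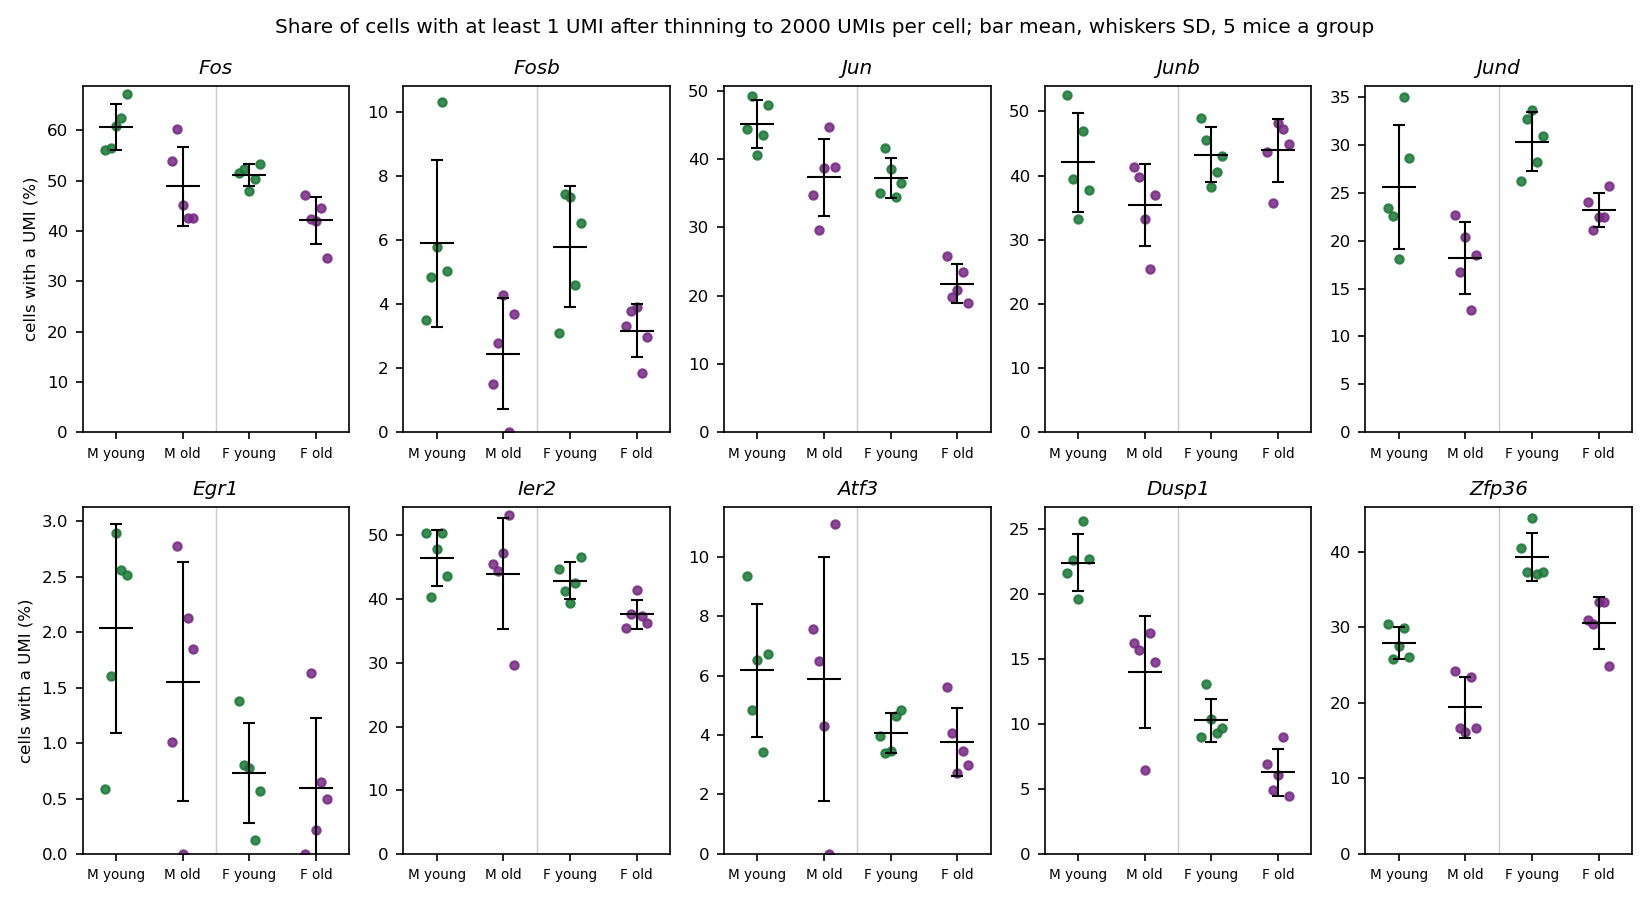
Percentage of cells in which each gene had 1 UMI or more (vertical axis, from 0) after thinning every cell to 2000 UMIs, by mouse, in the male (M) and female (F) pools. Points are mice, the bar is the mean of 5 mice and the whiskers are the SD. The female shares of Jun, at 34.5% or more in young mice and 25.8% or less in old mice, are the furthest apart.

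After thinning, positive cells of old females held fewer UMIs of Fos and Jun. This measure and the share of positive cells both depend on the overall level of a gene, so it is no separate result. A positive thinned female cell held 1.64 ± 0.0322 UMIs of Fos in young and 1.42 ± 0.0612 in old mice, and 1.46 ± 0.0643 and 1.26 ± 0.0376 UMIs of Jun. For Junb the values were 1.56 ± 0.0398 and 1.62 ± 0.0871 UMIs. In males a positive cell held 2.34 ± 0.127 UMIs of Fos in young and 2.08 ± 0.323 in old mice. Fosb, Atf3 and Egr1 were near 1 UMI per positive cell, where this measure cannot vary much.

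Single cells held few of the 10 genes at a time. Thinned cells had a mean of 2.84 ± 0.192 of the genes in young and 2.27 ± 0.146 in old males, and 2.65 ± 0.0882 and 2.13 ± 0.130 in young and old females. The share of cells with 5 or more of the genes was 16.4%, 14.5%, 13.8%, 25.6% and 16.8% in young males and 10.6%, 6.48%, 4.30%, 6.38% and 9.26% in old males. In females it was 11.4%, 14.5%, 11.6%, 9.99% and 12.8% in young and 5.10%, 2.98%, 4.89%, 6.49% and 3.24% in old mice. The ages did not overlap in either pool. Cells in which none of the 10 genes was detected after thinning made up 6.16 ± 2.24% and 12.3 ± 2.38% of young and old male cells and 7.61 ± 1.63% and 11.5 ± 1.46% of female cells. These sums include the choice of the genes and carry no test.

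**Figure D3:**
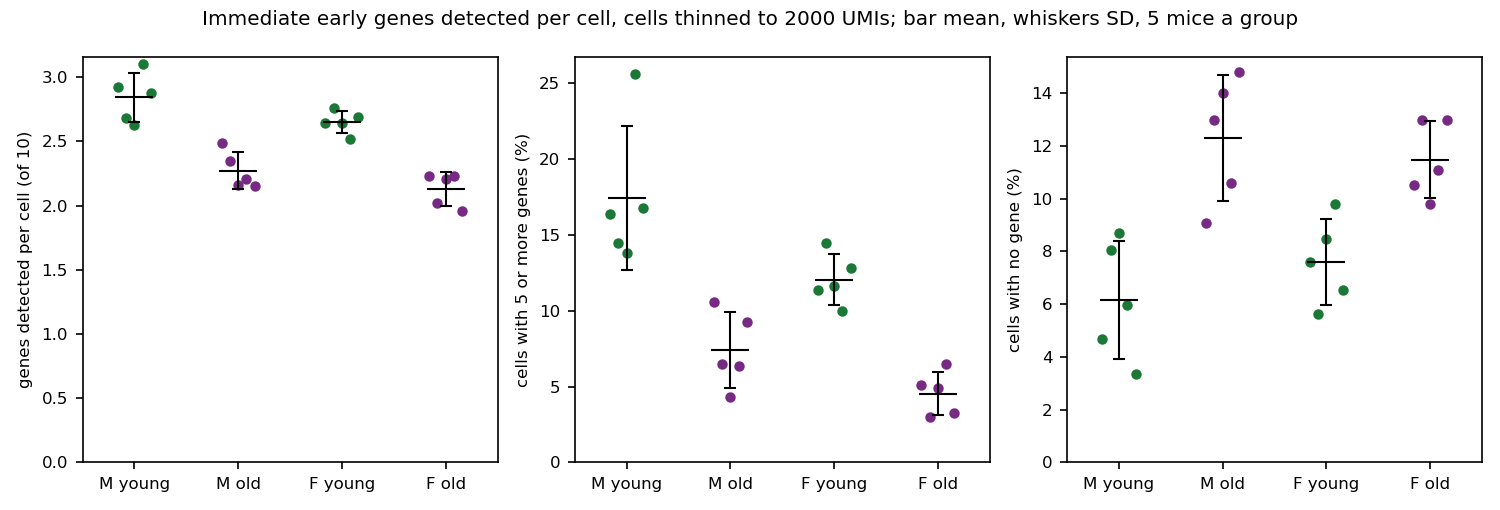
Mean number of the 10 genes detected per cell, share of cells with 5 or more of them and share with none (vertical axes, from 0), for cells thinned to 2000 UMIs, by mouse in the male (M) and female (F) pools. Points are mice, the bar is the mean of 5 mice and the whiskers are the SD. Old mice lie below all young mice in the first and second panels in both pools.

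Across cells of 1 mouse the genes were weakly correlated. Over thinned cells (log of count plus 1), the mean within-mouse Pearson r was positive for 40 of 45 pairs in each pool, with a median of 0.08 in males and 0.05 in females, and the highest values were 0.27 for Fos with Dusp1 in males and 0.17 for Junb with Zfp36 in females. The 10 other genes most like the sum of the 10, by the lower r of the 2 pools among 2169 genes, were Lyz2 (0.23), Ctss (0.21), Ifitm3 (0.21), Psap (0.20), Ccl6 (0.19), Btg1 (0.19), Malat1 (0.19), Ier5 (0.19), Tyrobp (0.18) and Wfdc17 (0.18). Btg1 and Ier5 are immediate early genes themselves, and Lyz2, Ctss, Psap and Tyrobp are abundant myeloid genes. These values share the library and the depth of 2000 UMIs per cell and are a description only. How often pairs of other genes are positively correlated is not given. Across the 10 mice of a pool, with the mean of each age removed, Fos followed Zfp36 (r = 0.82 in males, 0.85 in females) and Dusp1 (0.73 and 0.79). Fos with Jun was at 0.27 in males and 0.89 in females. Of the 45 pairs, 33 were positive in males and 32 in females. The median over the pairs was 0.28 and 0.15, and the lowest values were -0.53 and -0.40.

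The levels of these genes differed between parts of the monocyte population, which the choice of genes had not used. In each mouse, the cells above the 75th percentile for the share of UMIs on a marker list (its upper range) were compared with its other cells, as sums per mouse with the mouse as a block (edgeR, adjusted over all genes of that fit). These are ranges of a score, not cell types. For the granule list (Camp, Ngp, Elane, Mpo and the like, which mark NeuMo, the neutrophil-like monocytes) 70 of 1227 male and 215 of 6641 female cells lay within 10% of the cut. For the MHC-II list (H2-Aa, Cd74 and the like, which mark DCMo, the dendritic cell-producing monocytes) 62 and 397 did. More cells lay near the cut for the mature list (126 and 903), heat shock (205 and 1231) and mitochondrial transcripts (334 and 2031). Depth differed as well, at medians of 18929 UMIs in the granule upper range and 8422.5 in the rest, and 7887 in the MHC-II upper range and 11414.5 in the rest, in females. Levels in these ranges are CPM, a share of the UMIs of a range. A lower CPM in deeper cells need not mean fewer UMIs per cell, and UMIs per cell were not compared.

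Granule-high cells had a lower CPM of nearly all these genes. In females 9 of the 10 were called lower in the granule upper range, where 40.1% of 10087 genes tested were called lower, and in males 7 of 9 against 24.6%. Junb was at 124 ± 17.2 CPM in the granule upper range and 360 ± 46.8 CPM in the rest (SD, n = 10 female mice). It was lower in 10 of 10 mice, and the highest value in the upper range, 152 CPM, lay below the lowest in the rest, 282 CPM. The log2 fold change was -1.53 (SE 0.06, adjusted p = 1.10e-16, edgeR). Zfp36 was lower by the same measure, at 80.7 ± 13.7 CPM in the upper range and 245 ± 48.6 CPM in the rest (log2 fold change -1.58, SE 0.05). Atf3 was scarce in the upper range, at 1.69 ± 1.14 CPM against 22.2 ± 2.95 CPM in females and 5.21 ± 4.69 CPM against 36.5 ± 13.9 CPM in males. Fos was at 233 ± 50.4 CPM against 392 ± 91.4 CPM in females (-0.72, SE 0.04), a smaller gap. Egr1 did not pass the test in females (0.24, SE 0.28, adjusted p = 0.440, edgeR), and Fosb and Ier2 did not in males. Thinning left 8 of the 9 female and 6 of the 7 male calls, and Fosb in females no longer passed.

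MHC-II-high cells had a higher CPM of most of the 10 genes. In females 9 of 10 genes were called higher in the MHC-II upper range (29.9% of 9968 genes were) and in males 8 of 9 (15.8% of 4323 genes were). Junb was at 443 ± 47.0 CPM in the upper range and 231 ± 25.0 CPM in the rest in females and at 411 ± 106 and 233 ± 58.6 CPM in males. Jund was at 257 ± 48.8 and 128 ± 35.4 CPM in females (log2 fold change 1.04, SE 0.06). Atf3 reached 34.0 ± 5.46 CPM against 10.2 ± 2.24 CPM in females (1.68, SE 0.11) and 61.4 ± 32.2 against 16.5 ± 8.42 CPM in males (1.83, SE 0.26). Egr1 was also higher in females, at 6.39 ± 7.02 against 2.10 ± 0.953 CPM (1.29, SE 0.30, adjusted p = 6.84e-04, edgeR). It had 180 UMIs in that pool, and mice ranged from 1.06 to 19.4 CPM in the upper range. Fosb was the exception in both pools (0.23, SE 0.11 in females and -0.17, SE 0.33 in males). With thinned cells 7 female and 4 male calls were left, and Fos, Ier2 and Dusp1 were among the male calls lost.

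The interferon list (Ifit1, Isg15, Irf7 and the like) gave the same direction, with 8 of 10 genes called higher in females (31.6% of all genes) and 5 of 9 in males (17.0%), where Fosb was called lower. Atf3 was at 38.3 ± 5.70 CPM in the interferon upper range of female cells and 9.34 ± 2.25 CPM in the rest. The mature list (Fn1, Chil3, Vcan, Ccr2 and Cybb) gave 8 of 10 higher in females (32.1%) and 4 of 9 in males (13.4%), with Zfp36 at 289 ± 58.0 against 159 ± 28.0 CPM in females, and 2 of the 4 male calls were left with thinned cells. Cells high in G2 and mitosis genes gave 8 of 10 lower in females (32.2%) and 5 of 9 in males (12.3%). Fosb went the other way in females, at 27.8 ± 14.0 CPM in those cells and 21.1 ± 9.17 CPM in the rest (log2 fold change 0.42, SE 0.09, adjusted p = 5.27e-04, edgeR). Median depth in females was 7643 UMIs in the interferon upper range and 11651 in the rest, and 7400 and 11417 for the mature list. For G2 and mitosis it was 17008 and 8303.5. For all the RNA lists in both pools, upper ranges with genes called mostly lower were deeper than the rest. Those with genes called mostly higher were shallower. The part of depth in these differences was not tested.

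Cells with the largest share of heat shock transcripts, of which Hspa8 was the most abundant, also had a lower CPM of early genes. Of the early genes 8 of 10 were called lower in females (38.5% of all genes) and 4 of 9 in males (19.5%). In females Fos was at 239 ± 58.9 CPM in the heat shock upper range and 386 ± 82.7 CPM in the rest. Those cells were deeper as well, at a median of 18131 against 8485.5 UMIs in females. Cells high in mitochondrial transcripts gave 8 of 10 lower in females (14.9%) and 4 of 9 in males (5.28%), with smaller differences (Zfp36 -0.47, SE 0.04 and Junb -0.49, SE 0.04 in females). Their median depth was 11913 against 9139 UMIs in females. With thinned cells 2 of the 4 male calls were left in each of these ranges, and with the 826 HTODemux singlets 1 was left for mitochondrial transcripts.

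**Figure D4:**
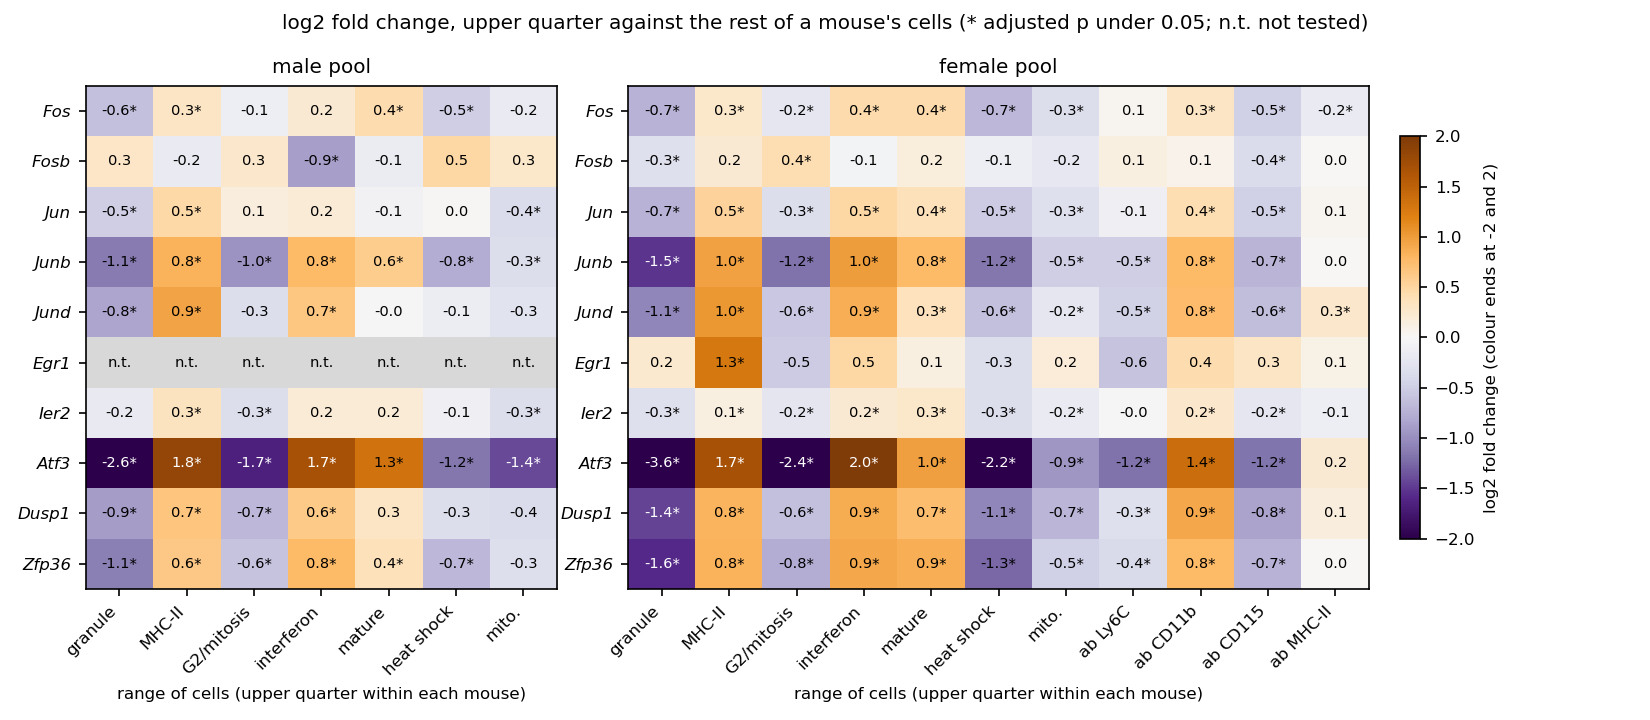
Log2 fold change of each gene between the upper range of cells and the rest within each mouse (number and colour, the colour ending at -2 and 2), for 7 RNA lists in the male pool (left) and for the same lists and 4 surface antibodies (ab) in the female pool (right). An asterisk marks an adjusted p under 0.05 in edgeR and n.t. a gene that did not pass the filter. Atf3 has the widest range, from -3.58 in the granule upper range to 2.03 in the interferon upper range of female cells.

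Surface proteins, measured with antibodies in the female pool alone, gave ranges that did not use RNA counts. Each value was relative to the mean of the 6 antibodies in the cell (log scale). The ranges therefore depend on each other and are not amounts of 1 protein. Cells in the upper range of CD11b, an integrin of myeloid cells, had a higher CPM of 8 of the 10 genes (29.7% of 9853 genes were called higher). Junb was at 404 ± 56.2 CPM in the CD11b upper range and 238 ± 23.2 CPM in the rest, and higher in 10 of 10 mice. Dusp1 was at 58.1 ± 19.1 against 30.4 ± 8.69 CPM (log2 fold change 0.91, SE 0.08). Cells in the upper range of CD115, the receptor for M-CSF, had a lower CPM of 9 of the 10 (26.8% of genes were called lower). Fos was at 264 ± 64.2 CPM in the CD115 upper range and 358 ± 76.3 CPM in the rest (-0.47, SE 0.03), and Dusp1 at 23.9 ± 8.64 against 40.5 ± 12.1 CPM (-0.85, SE 0.08). For Ly6C 5 of 10 were lower (15.5%), among them Atf3, at 7.71 ± 2.80 against 17.2 ± 2.21 CPM, while Fos did not pass the test (0.06, SE 0.04). For surface MHC-II 1 gene was higher and 1 lower (7.32% of genes were called in either direction), Jund at 0.26 (SE 0.04) and Fos at -0.16 (SE 0.04), and neither passed with thinned cells. The CD115 and Ly6C upper ranges were deeper than the rest (14368 against 9008.5 and 13963 against 8765.5 UMIs). The CD11b upper range was shallower (7618 against 11164), and that of surface MHC-II was close to the rest (9430 against 9644.5). The part of depth in these differences was not tested.

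Within these ranges the age difference is given as a description, since the cells and the contrast are the same as above. Each cut was set within a mouse, so a range need not hold cells of the same state in young and old mice. Over the 22 female sets of cells (the upper range and the rest of 11 ranges, which overlap each other), Jun was lower in old mice in 22, without overlap in 22, by -0.76 to -1.06 on the log2 scale of group means. Fos was lower in 22 of 22 (-0.42 to -0.60) and Zfp36 in 22 of 22 (-0.21 to -0.52). Junb was lower in 6 of 22 and Atf3 in 15 of 22. Over the 14 male sets Fos was lower in 14 (-0.23 to -0.74), Zfp36 in 14 (-0.27 to -0.84) and Dusp1 in 13 (-1.41 to 0.33). Egr1 was lower in 2 of the 14. The mix of states did vary between mice: the MHC-II list was at 879 to 1391 CPM in young and 1442 to 8807 CPM in old females, and at 1597 to 2363 CPM in young and 612 to 10630 CPM in old males, with the lowest value in male old 4. In the MHC-II upper range, where most of the genes had a higher CPM, Jun was at 308 ± 41.4 CPM in young and 176 ± 33.0 CPM in old females. Junb was at 424 ± 24.8 and 461 ± 59.0 CPM there and Atf3 at 33.9 ± 5.93 and 34.2 ± 5.65 CPM. The other genes had lower old means. In males the old mean was higher for Junb, Jund and Egr1 (0.06, 0.01 and 0.32 on the log2 scale). It was little lower for Ier2, Atf3 and Dusp1 (-0.05, -0.05 and -0.02) and lower for Fos, Fosb, Jun and Zfp36 (-0.40, -1.78, -0.43 and -0.53). This male upper range held as few as 12 cells in a mouse. Egr1 and Fosb had only 66 and 181 UMIs in the whole male pool, so their values rest on few counts.

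Other genes of the pathway were taken from 4 lists of 90 genes in all and tested between the ages. The lists were chosen with earlier results of these data known. The number called is therefore a description and no independent test against the share over all genes. In females 76 passed the filter, of which 7 rose and 5 fell in old mice (edgeR, adjusted p under 0.05), where 3.42% of all genes were called in either direction. In males 52 passed, and 0 were called by edgeR, as were 0% of all genes, and 0 by DESeq2. At an unadjusted p under 0.05 (edgeR), 2 were higher and 9 lower, where 618 of all 5656 male genes had such a p in either direction. Without male old 1 the male count was 1. Of the 12 called in females, 11 were other immediate early genes and 1 a feedback gene.

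The 5 that fell in old females are transcription factors and regulators of growth. Rhob, a small GTPase, was at 92.0 ± 10.4 CPM in young and 60.6 ± 3.51 CPM in old females (SD, n = 5 each; log2 fold change -0.60, SE 0.07, adjusted p = 4.03e-04, edgeR). Klf4, a zinc finger factor that monocyte development needs, went from 348 ± 13.8 to 241 ± 33.8 CPM (-0.53, SE 0.08). Btg2, an antiproliferative gene, was at 304 ± 18.5 and 214 ± 32.1 CPM, and Ier5 at 122 ± 10.4 and 84.9 ± 10.5 CPM. Klf2 fell least, from 309 ± 17.4 to 254 ± 26.8 CPM (-0.28, SE 0.06). The ages did not overlap for Rhob, Klf4, Btg2 and Ier5 and did for Klf2, which missed the threshold without young female 2, young female 5 or old female 2 (adjusted p up to 0.0724, edgeR). In males, where none was called, Btg2 was at 149 ± 17.3 and 109 ± 21.9 CPM (-0.48, SE 0.13) and Rhob at 95.4 ± 9.63 and 77.6 ± 25.5 CPM.

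The 7 that rose include inhibitors of cytokine and NF-kB signalling. Socs3, an inhibitor of cytokine receptors that STAT3 induces, was at 2.80 ± 0.445 CPM in young and 14.7 ± 4.70 CPM in old females (log2 fold change 2.32, SE 0.23, adjusted p = 5.46e-05, edgeR). Every old female lay at 9.42 CPM or above and every young female at 3.23 CPM or below. Ier3 went from 7.87 ± 1.43 to 16.9 ± 2.81 CPM (1.12, SE 0.14). With every female barcode that passed the filters on genes and mitochondrial UMIs, doublets included, the log2 fold changes were 0.61 for Ier3, 1.66 for Socs3 and 0.50 for Zfp36l1, which then missed the threshold (adjusted p = 0.0932, edgeR). Nfkbia, the inhibitor that NF-kB induces against itself, went from 102 ± 12.9 to 174 ± 28.0 CPM (0.76, SE 0.10), and the kinase Pim1 from 101 ± 10.4 to 165 ± 32.7 CPM (0.72, SE 0.11). Zfp36l1, a relative of Zfp36, was at 4.93 ± 0.599 and 9.79 ± 2.80 CPM (0.94, SE 0.18), against the fall in Zfp36 itself. Sgk1 (0.62, SE 0.15) and Cebpb (0.26, SE 0.06) rose by less. Sgk1 missed the threshold without any 1 of young females 2, 3, 4 and 5 and old females 2 and 3 (adjusted p up to 0.0919, edgeR), and Cebpb without any 1 of young females 1, 2 and 3 and old female 3 (up to 0.103, edgeR). In males Sgk1 (-0.27, SE 0.25) and Cebpb (-0.07, SE 0.11) had the opposite sign, neither called. Nfkbia was at 121 ± 19.5 and 142 ± 37.5 CPM and Pim1 at 143 ± 35.0 and 183 ± 32.5 CPM, neither called, and Socs3, Ier3 and Zfp36l1 did not pass the filter.

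**Figure D5:**
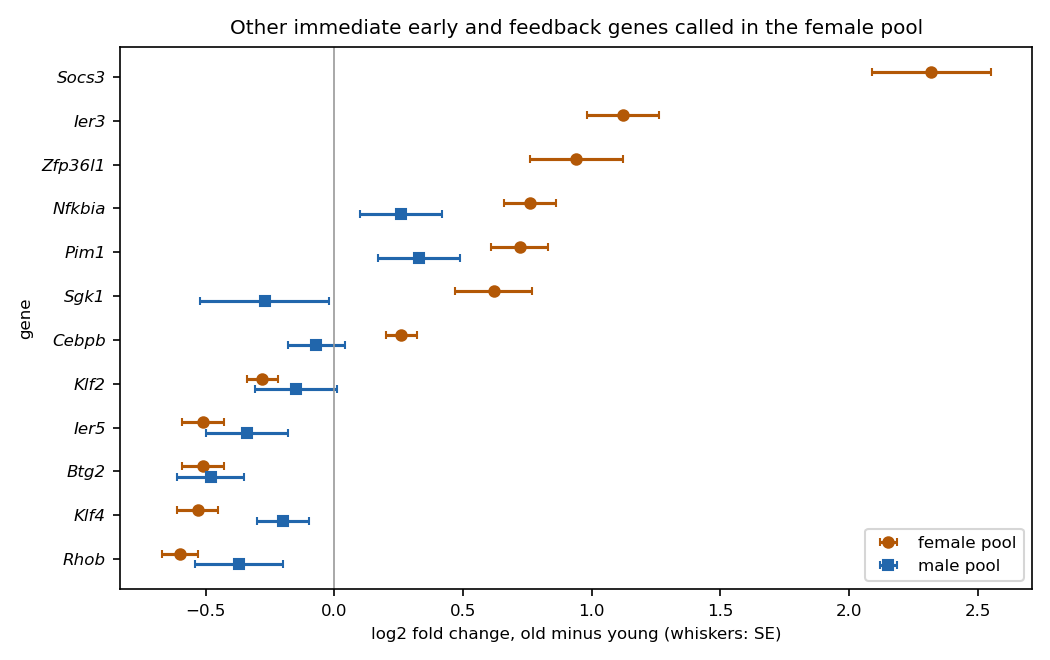
Log2 fold change, old minus young (horizontal axis), of the 12 other immediate early and feedback genes called in the female pool, with the SE as whiskers. Circles are the female and squares the male pool, where 3 of the 12 genes did not pass the filter on low counts and none was called. The genes run from Rhob at -0.60 to Socs3 at 2.32 in females.

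Of the other AP-1 family members (Fosl1, Fosl2, Batf, Maf and Atf genes), 14 passed the filter in females and 8 in males, and 0 were called in either pool by edgeR (1 higher and 1 lower at an unadjusted p under 0.05 in females, and 2 higher and 1 lower in males). The largest values in females were Batf2 at 1.66 (SE 0.48, adjusted p = 0.0753, edgeR), Jdp2 at 0.24 (SE 0.15) and Atf5 at 0.24 (SE 0.16). The upstream kinases and factors, from Csf1r through the MAP kinases to Srf and Creb1, gave 0 called of 30 in females (2 higher and 3 lower at an unadjusted p under 0.05) and 0 of 23 in males (0 higher and 1 lower). Among the largest female values were Elk1 at 0.40 (SE 0.15) and Mapk8 at -0.31 (SE 0.14). The medians of the list were -0.02 and -0.08. Over all genes tested between the ages, 1667 of 10074 in females and 618 of 5656 in males had an unadjusted p under 0.05 (edgeR, either direction). The interaction of sex and age was called for 0 of 70 genes of the 4 lists by edgeR, where 0.0225% of 8893 genes were called, and for 0 by DESeq2. An unadjusted p under 0.05 (edgeR) was found for 6 of the 70 with a positive and 2 with a negative sign, and for 527 of the 8893. A call in females alone therefore does not show a difference between the pools.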

How the data were processed

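The deposited matrices held UMI counts per gene and cell, which the authors made from 10x 3′ libraries with STAR 2.5.1 and Cell Ranger 4.0.0 on mm10, per the methods and the submitters' processing notes. The matrix headers name other software versions, 7.0.0 in males and 3.1.0 in females, and the effect of this on comparisons between the pools was not tested. The same matrices held 10 hashtag antibodies and, in females, 6 surface antibodies. Other deposited files held feature names, barcodes and the mouse of each hashtag. The members and the gene lists were chosen with earlier results of these data known.

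Each cell was given to the mouse of its leading hashtag on the centred log ratio scale (Seurat 5.3.0). Cells with over 200 genes and under 5% mitochondrial UMIs were kept. All 1227 male barcodes, deposited after filtering, were kept, although HTODemux called 401 of them doublets, since the leading hashtag held a median of 95.1% of hashtag counts there. In females the 2478 doublets and 942 negatives of 10433 barcodes were left out.

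Counts were summed per mouse (330586 to 18186954 UMIs) and fitted with edgeR 4.0.16 in R 4.3.3 (quasi-likelihood, TMM, filterByExpr), with p-values adjusted by Benjamini-Hochberg over all genes of a fit at 0.05. CPM of mice used TMM library sizes and CPM of cell ranges used plain totals. The SE of a log2 fold change was its absolute value divided by the square root of the quasi-likelihood F statistic. Upper ranges lay above the 75th percentile within each mouse, with surface antibodies on the centred log ratio scale. The p-values measure the spread between mice of 1 library. Named pathway genes were every gene called in either pool, at most 10 in each direction, and otherwise the 3 with the largest absolute log2 fold change in females, except that some items are not reported here. The 10 most similar genes were ranked by the lower of the pools' mean correlations. Alternatives were DESeq2 1.42.0, every gene with a UMI, other hashtag rules, thinning to 2000 UMIs, upper against lower range, an exact sign-flip test and leaving out each mouse. The edgeR step was tested on simulated data.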

Additional observations from a re-analysis of the deposited data

Results flagged for a closer look

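Of 60 groups of 5 mice looked at, 2 held a mouse whose gap to the nearest other mouse was large for the range of its group, and chance gives about 1 in 20 such groups. Egr1 was at 5.12 CPM in female old 2, against 0.966 to 2.04 CPM in the other 4 old females, a gap of 0.74 of the range. The share of thinned cells with 5 or more of the genes was 25.6% in male young 4, against 13.8% to 16.8% in the other 4 young males, a gap of 0.75 of the range.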

How the results depend on the processing

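The number of genes with a lower level in old mice was 9 of 9 in males under all alternatives run, and 9 of 10 in females, or 10 where every barcode or every barcode with at least 80% of hashtag counts on 1 hashtag was used. Egr1, which did not pass the filter in males, is not among the male 9. Without each mouse in turn it was 9 in both pools. Lower shares of positive cells were found for 6 to 9 male and 7 to 8 female genes without 1 mouse. Pathway calls in females were 10 to 14 without 1 mouse and 12 to 14 otherwise. In males they were 0 to 1 without 1 mouse, and 2 where every gene with a UMI was tested. Zfp36l1 and Cebpb missed the threshold with every barcode (adjusted p = 0.0932 for Zfp36l1, edgeR). Thinning to 2000 UMIs left 4 of 8 male calls for the MHC-II range, 2 of 4 for the mature range, 2 of 4 for heat shock and 2 of 4 for mitochondrial transcripts, and 0 of 2 female calls for surface MHC-II. With HTODemux singlets the male mature range gave 2 calls and the mitochondrial range 1. For the male mitochondrial range, upper against lower range gave 7 calls and the exact sign-flip test, unadjusted, 7, where 0.00195 is the smallest p it can give. The cause of these changes was not tested. No call turned its direction. Old and young mice were different animals, so the ages were not compared as pairs, while the ranges of cells were paired within each mouse. Without male old 4, which had 49 cells, the male pathway count was still 0.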
